A study of Mus musculus with 2 samples.

Results

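The genes described here are 30 mouse genes for the synthesis of cholesterol and fatty acids, taken by a list of gene symbols out of 32285 features in the deposited matrices, in which all 30 were found. The sterol branch holds 24 of them, of which 18 encode enzymes from acetyl-CoA to cholesterol and 6 encode sensing and transport proteins, and the fatty acid branch holds 6. They were followed across cell populations of the knee joint cartilage of mice in 2 single-cell RNA-seq libraries, 1 from 3 mice after sham surgery and 1 from 3 mice after DMM surgery. DMM is destabilization of the medial meniscus, an operation used to model osteoarthritis. All mice are labelled WT, and their age, sex and the time since surgery are not given in the sources used here. The cells were sorted as viable cells (DAPI-, CalceinAM+) that lacked CD45, Ter119 and CD31, markers of blood, red cell and endothelial lineages, and are labelled superficial cells. Cells of the 3 mice of a group cannot be told apart, so each group is 1 library: no difference has a replicate check, no p-value is given, and every 95% interval covers counting error only.

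Cholesterol is built from acetyl-CoA through mevalonate, isoprenoids, squalene and lanosterol, and saturated and monounsaturated fatty acids are built from cytosolic acetyl-CoA by carboxylation, chain extension, elongation and desaturation. Transcription of both pathways is driven by the SREBP proteins, which are held in the endoplasmic reticulum with their escort SCAP by INSIG proteins when sterols are plentiful and are released to the nucleus when sterols are low. SREBP-2, from Srebf2, acts mainly on the sterol genes and SREBP-1c, from Srebf1, mainly on the fatty acid genes. In cartilage, which has no blood vessels, lipids reach chondrocytes by diffusion, and cholesterol also serves to modify hedgehog proteins in the growth plate.

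The sham library held 106799078 UMIs (unique transcript molecules) in 11362 barcodes and the DMM library 97346999 in 11076. After filters 9529 cells remained in each, with a median of 8064 and 7859 UMIs per cell, and 24 barcodes occurred in both libraries. Clustering without the lipid genes gave 27 clusters, of which 24 had at least 50 cells in each library and are used as populations, each named by its marker class and leading genes. Against the sort, 4 clusters (1567 sham and 898 DMM cells) carried red cell lineage markers and another (68 and 58 cells) neutrophil markers. Against the label, only 2 clusters were named from the superficial zone markers (Prg4, Erg, Creb5, Cilp, Clu and Vit): a population led by Casr (811 sham, 586 DMM cells) and one led by Msmp (518, 432). The other cartilage populations were 2 chondrocyte-like clusters led by A2m (820, 666) and by Pcp4 (683, 491), a hypertrophic chondrocyte-like cluster led by Ihh (460, 345), and a cluster led by Serpina1e (634, 971) that stays unnamed. The Serpina1e cluster passed the score and marker limits, but another list held more of its leading genes. A Serpina1e-led cluster joined the superficial class in 2 alternative clusterings. That class then held 1934 sham and 1964 DMM cells (at most 5% mitochondrial UMIs) or 1969 and 2028 (variable genes centred by library). Pi16-led (529, 305) and Ccl7-led (561, 370) fibroblast-like cells and Clic5-led synovial lining fibroblast-like cells (374, 924) serve for comparison. Levels are CPM, the UMIs of a gene scaled to the UMI total of the population in 1 library.

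Promoters are shown first because SREBP proteins act on short sequence elements there, next to boxes for their partner factors NF-Y and Sp1. Of the 30 genes, 24 had a RefSeq window of 300 bases (GRCm38.p6, 250 before and 50 after the start). Motifs, 6 in all, were searched on both strands, and the letters displayed were chosen after the matches were seen. The sterol response element core TCACNCCA occurred in 3 members, Hmgcs1, Msmo1 and Srebf2, or 3 of the 32 promoters listed for the 24 members (9.38%), against 4.36% of all 32851 promoters, its extension TCACNCCAC in Hmgcs1 (1.24% of all), and a stricter form of 10 letters in none (0.0913% of all). The NF-Y box CCAAT occurred in 20 of 24 members, or 65.6% of their promoters against 37.4% of all promoters, and the GC box GGGCGG in 20 of 24 members, or 75% of their promoters against 35.7%. The E-box CACGTG occurred in 5 members, Dhcr7, Hsd17b7, Insig1, Sc5d and Scap, or 18.8% of member promoters against 7.15%. These are matches of letters and no binding was measured. The upstream sequence of Hmgcs1 (chr13:119690101-119690350, plus strand) and of Insig1 (chr5:28071162-28071362, plus strand) follow, with capitals marking TCACNCCA, CCAAT (as ATTGG on the other strand) and CACGTG.
Hmgcs1: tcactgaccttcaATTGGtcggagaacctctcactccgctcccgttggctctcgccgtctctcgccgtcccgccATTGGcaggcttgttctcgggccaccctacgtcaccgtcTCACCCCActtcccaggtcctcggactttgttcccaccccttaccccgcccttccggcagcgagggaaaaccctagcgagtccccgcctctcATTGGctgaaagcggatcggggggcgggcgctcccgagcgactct
Insig1: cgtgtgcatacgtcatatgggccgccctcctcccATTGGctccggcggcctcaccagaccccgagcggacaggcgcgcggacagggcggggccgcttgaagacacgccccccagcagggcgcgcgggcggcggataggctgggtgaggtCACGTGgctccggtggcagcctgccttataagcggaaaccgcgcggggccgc
Counted from the RefSeq start, the Hmgcs1 window holds CCAAT at 237, 176 and 45 bases and TCACNCCA at 137 bases upstream. The Insig1 window holds CCAAT at 216 and CACGTG at 101 bases upstream of the RefSeq start, which lies downstream of the GENCODE start at which the printed stretch ends.

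The TCACNCCA matches, in capitals, stand in these 30-base sites, at chr13:119690203-119690232 on the plus strand, chr8:64733737-64733766 on the minus strand, where it lies inside the GENCODE span of the gene, and chr15:82147096-82147125 on the plus strand.
Hmgcs1: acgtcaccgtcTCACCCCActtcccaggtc
Msmo1: tctcactattcTCACTCCAtccgcgcagcc
Srebf2: atgacgcaccaTCACCCCAtgagccgcttc

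The summed sterol branch was highest in cartilage cells and followed the same broad order in both libraries. It reached 2744 CPM in the sham library (95% interval 2709.7 to 2778) and 2239.6 in the DMM library (2202 to 2278) in hypertrophic chondrocyte-like cells. The A2m chondrocyte-like population followed with 2050.0 and 1614 CPM and the Msmp superficial population with 1873 and 1519.7. Serpina1e cells had 1601 and 1360.5 CPM, Pcp4 chondrocyte-like cells 1557 and 1341, and Casr superficial cells 1261 and 908. In DMM the Serpina1e and Pcp4 values did not differ beyond counting error, and all 6 cartilage populations stood above every other population in both libraries. Fibroblast-like cells had less, with 608 and 576 CPM in the Pi16 population and 476 and 446 in the Ccl7 population. The lowest level was in Slfn14-led erythroid-like cells, at 76.6 and 217 CPM, where haemoglobin transcripts summed to 598171 and 577217 CPM. Depth per cell differed between populations. In sham the median was 19237.5 UMIs in hypertrophic cells (2744 CPM), 6748 in Casr cells (1261 CPM) and 19537 in Myb-led erythroid-like cells (491 CPM).

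The summed fatty acid branch had another order. It was highest in A2m cells, at 1008 CPM in sham (990.3 to 1026) and 870.5 in DMM (851 to 891), then in Pcp4 cells at 886 and 719.9 and in hypertrophic cells at 845 and 722. In DMM the last 2 did not differ beyond counting error. The superficial populations had less than the fibroblast-like ones: 363 and 261 CPM in Msmp cells and 286 and 220.3 in Casr cells, against 451 and 362 in Pi16 and 398 and 308 in Ccl7 cells. Superficial cells therefore stood near the top of the sterol order and in the lower part of the fatty acid order. Over all 24 populations, which share their library and differ in depth, the 2 sums correlated with Pearson r = 0.76 in sham and 0.77 in DMM (Spearman's rho 0.55 and 0.64). Over the 18 connective tissue populations r was 0.53 and 0.59 and rho 0.21 and 0.26.

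**Figure D1:**
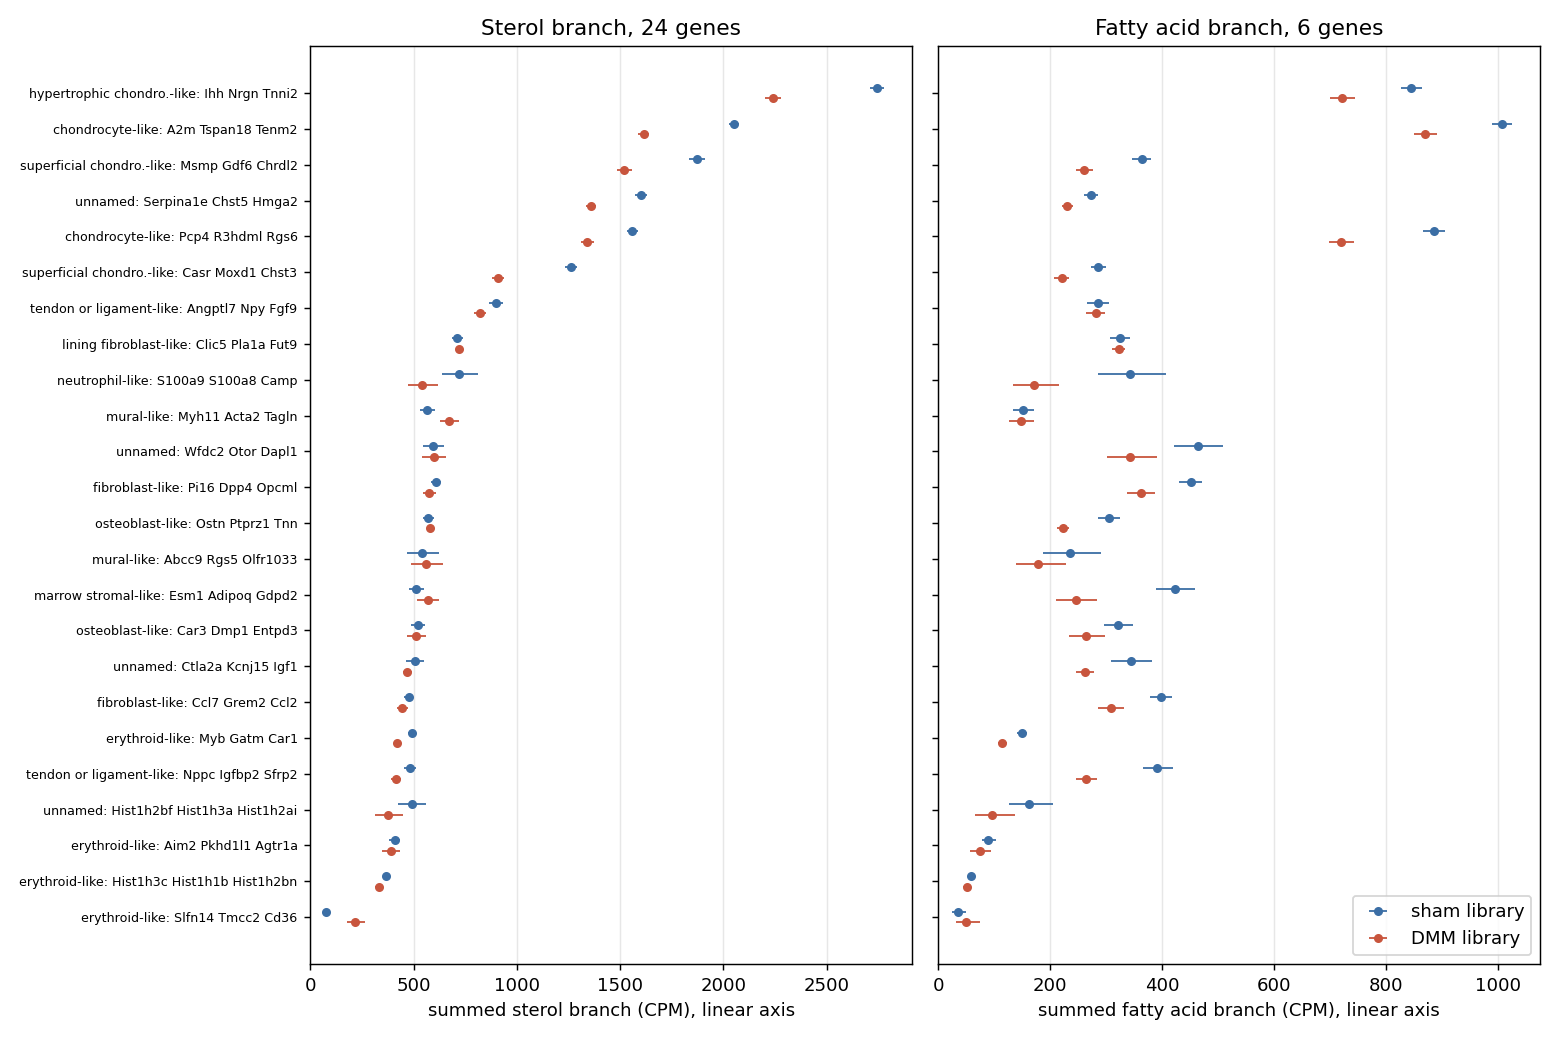
Summed CPM of the sterol branch and of the fatty acid branch in each population, with sham and DMM points and exact Poisson 95% intervals. Hypertrophic chondrocyte-like cells lead the sterol branch at 2744 (sham) and 2239.6 (DMM) CPM, and A2m chondrocyte-like cells lead the fatty acid branch at 1008 and 870.5.

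Among the early sterol enzymes, Hmgcs1, the cytosolic HMG-CoA synthase that feeds the mevalonate pathway (Ensembl ENSMUSG00000093930, chr13:119690379-119708260 on the plus strand, GENCODE vM21), stood at 536 CPM in sham and 385 in DMM in hypertrophic cells, 369 and 275 in A2m cells, 313 and 228 in Msmp cells, and 153 and 93.2 in Casr cells. Fibroblast-like cells had 80.7 and 57.3 CPM (Pi16) and 64.7 and 60.5 (Ccl7). The cartilage populations did not overlap the fibroblast-like ones in either library. For how many of all genes this held was not counted. Idi1, the isomerase that makes dimethylallyl diphosphate, had 225 and 148 CPM in hypertrophic, 146 and 101 in Msmp, 78.1 and 35.3 in Casr and 30.1 and 17.4 in Pi16 cells. Pmvk, phosphomevalonate kinase, had 79.8 and 78.9 CPM in hypertrophic cells against 14.1 and 16.5 in Pi16 cells. Fdps, which makes farnesyl diphosphate, had 115 and 145 CPM in hypertrophic cells and 18 and 22 in Pi16 cells. The thiolase Acat2, mevalonate kinase Mvk and mevalonate diphosphate decarboxylase Mvd were scarce, with a highest population level in sham of 20.9, 10.9 and 10.6 CPM.

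Among the later enzymes, those from squalene to cholesterol, Msmo1 differed most between chondrocyte and fibroblast-like cells. Msmo1, a methylsterol oxidase that removes methyl groups from lanosterol products, had 360.2 CPM in sham (348 to 373) and 306 in DMM (292 to 320.4) in hypertrophic cells, and 11.4 (8.39 to 15.2) and 13.3 (8.9 to 19.1) in Pi16 cells. A2m, Msmp and Serpina1e cells lay between, at 243 and 196, 211 and 193, and 221 and 205 CPM. Cyp51, the lanosterol demethylase, had 245 and 142 CPM in A2m, 239.9 and 161 in hypertrophic, 207 and 139 in Msmp and 108 and 55.5 in Casr cells, against 24.5 and 15.1 in Pi16 cells. Msmo1 and Cyp51 followed each other over the 24 populations, with r = 0.93 in sham and 0.95 in DMM. Fdft1, squalene synthase, and Hsd17b7, a sterol ketoreductase, were higher in the other chondrocyte populations than in superficial cells. Fdft1 had 129 and 111 CPM in hypertrophic and 106 and 77.3 in A2m cells against 23.4 and 17.2 in Casr cells, and Hsd17b7 had 131 and 116 in A2m against 48.7 and 29 in Casr cells. Sqle, squalene epoxidase, had 114 and 87.2 CPM in hypertrophic cells and 79.1 and 53.5 in Msmp cells.

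Not every late enzyme followed the branch. Ebp, the sterol isomerase, had 49.2 and 54.5 CPM in hypertrophic, 43.3 and 59.9 in lining, 41.4 and 51.3 in A2m and 27.7 and 45.4 in Pi16 cells. Nsdhl, a sterol dehydrogenase, was highest outside cartilage, at 18.9 CPM in sham in Aim2-led erythroid-like cells, against 15.7 in hypertrophic and 7.14 in A2m cells. Sc5d, the lathosterol oxidase, had 71.9 and 62.2 CPM in hypertrophic and 20.9 and 20.6 in Pi16 cells. Lss, lanosterol synthase, and Dhcr7, which makes cholesterol from its last precursor, reached 20.9 and 17.7 CPM in sham, both in hypertrophic cells. Tm7sf2, a sterol reductase, reached only 4.9 CPM and had too few UMIs to compare outside hypertrophic cells. Of all 30 genes, 15 had their highest level in hypertrophic cells in sham and 14 in DMM, 12 of them in both. The share of all measured genes that were highest in hypertrophic cells was not counted, so these counts have no background.

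**Figure D2:**
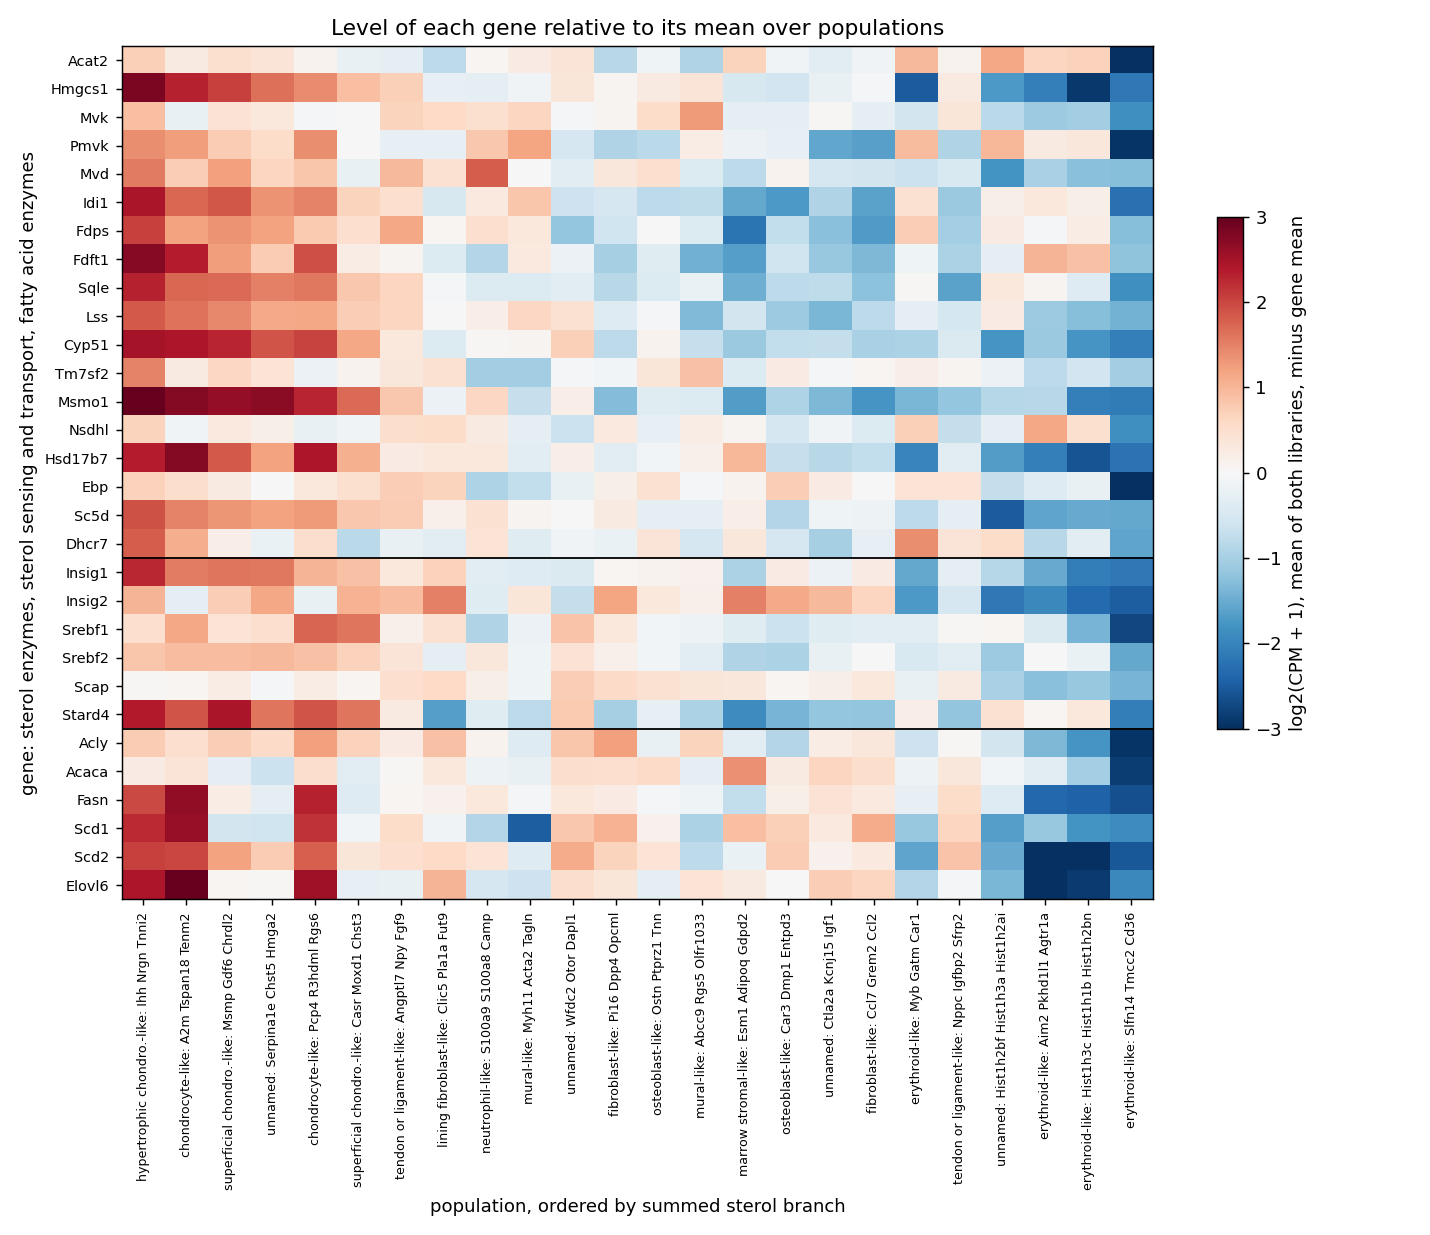
Log2 level of each of the 30 genes in each population (CPM + 1, mean of both libraries) relative to the gene's own mean over populations, with genes grouped as sterol enzymes, sensing and transport, and fatty acid genes (colours end at 3 in either direction). Most sterol enzymes are high in all cartilage populations, while Fasn, Scd1 and Elovl6 are high in A2m, Pcp4 and hypertrophic cells alone among them.

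Of the sensing genes, Insig1, whose own transcription is an SREBP target (chr5:28071363-28078662, plus strand), followed the enzymes: 245 and 205 CPM in hypertrophic, 164 and 122 in Msmp, 156 and 117 in A2m, 107 and 67.5 in Casr and 52.7 and 43.1 in Pi16 cells. Its Pearson correlation with Hmgcs1 over the 24 populations was 0.95 in sham and 0.89 in DMM (Spearman's rho 0.88 and 0.83). Insig2, the other INSIG gene (chr1:121304353-121332589, minus strand), followed Hmgcs1 less closely, with r = 0.68 and 0.61 (rho 0.36 and 0.38), and Insig1 with r = 0.67 and 0.70. Insig2 was highest in lining cells, at 195 CPM in sham (182 to 209.8) and 202 in DMM (193 to 211), and in marrow stromal-like cells, at 182 (161 to 206) and 215 (183 to 251), which did not differ beyond counting error. Casr superficial cells had 151 and 134 CPM, Pi16 cells 143 and 170.5, hypertrophic cells 145 and 135, and Msmp cells 118 and 110.1. A2m cells had 57.5 and 56.1 CPM and Pcp4 cells 64.1 and 53.4, the lowest of the cartilage populations in both libraries. For shares of cells, those with at least 2000 UMIs were thinned to 2000 and shallower cells were left out. The share of thinned cells with an Insig2 UMI was 29.2% in sham and 34.8% in DMM in lining cells, 11.6% and 10.9% in A2m cells, and 1.76% and 2.07% in Hist1h3c-led erythroid-like cells. The erythroid-like cells serve as a low comparison, and whether their UMIs are background was not tested.

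Srebf2 was even over cartilage, between 84.3 and 92.1 CPM in sham and between 63.8 and 87.8 in DMM over the 6 cartilage populations, and lower in lining cells at 37.6 and 35.8. Srebf1 was highest in Pcp4 cells in sham, at 83.8 CPM (68.4 in DMM), and in Casr cells in DMM, at 72.7 (66.2 in sham), and hypertrophic cells had 37.2 and 27. These counts do not separate the SREBP-1a and SREBP-1c transcripts of Srebf1. Scap, the escort, lay between 10.3 and 15.3 CPM in sham over the cartilage populations. In sham Hist1h3c erythroid-like cells, 1 cell held 43.9% of the 57 Scap UMIs. Stard4, a carrier of cholesterol between membranes, was highest in cartilage cells: 111 and 77.6 CPM in Msmp, 101 and 78.1 in hypertrophic, 70.7 and 56.7 in A2m and 67.7 and 39.6 in Casr cells. Its median over the 24 populations was 16.1 CPM in sham and 13.6 in DMM. Pi16 cells (8.02 and 7.33) and lining cells (4.93 and 4.12) lay below that median.

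In the fatty acid branch, the genes that separated the cartilage populations were Scd1, Fasn and Elovl6. Scd1, the stearoyl-CoA desaturase (chr19:44394455-44407879, minus strand), had 345 CPM in sham (334 to 355) and 286 in DMM (275 to 297) in A2m cells, 272 and 199 in Pcp4 cells and 258 and 230.2 in hypertrophic cells. Superficial cells had 41.9 (36.3 to 48.2) and 27.8 (23.1 to 33.3) in the Msmp and 58.1 and 40.1 in the Casr population, below the fibroblast-like cells at 124 and 92.1 (Pi16). Thinned to 2000 UMIs, 45.9% of sham and 40.2% of DMM A2m cells had a Scd1 UMI (89.8% and 83.3% unthinned). In Msmp cells the shares were 6.63% and 5.37% (27.4% and 21.5% unthinned), and in Hist1h3c erythroid-like cells 3.12% and 2.33% (11.2% and 13.1% unthinned), at median depths of 7786 and 7762 UMIs in sham.

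Fasn, fatty acid synthase (chr11:120805846-120824547, minus strand), had 120.1 and 141 CPM in A2m, 102 and 102 in Pcp4 and 75.9 and 87 in hypertrophic cells, against 20.3 and 26.9 in Msmp, 15.4 and 14.4 in Casr and 22.1 and 25.7 in Pi16 cells. Elovl6, which lengthens palmitate to stearate, had 168 and 154 CPM in A2m cells and 19 and 13.7 in Casr cells, and its correlation with Fasn over the 24 populations was 0.92 in sham and 0.91 in DMM. The A2m, Pcp4 and hypertrophic populations and the 2 superficial ones did not overlap for Scd1, Fasn or Elovl6 in either library. Serpina1e cells were not part of that comparison, and the share of all genes without such overlap was not counted. Scd2, a second desaturase, was graded: 251 and 198 CPM in hypertrophic, 242 and 189.6 in A2m, 153 and 98.3 in Msmp and 74.6 and 62.5 in Casr cells. The 2 genes at the head of the pathway varied less. Acly, which cleaves citrate to cytosolic acetyl-CoA, had 110.4 and 94.5 CPM in Pcp4, 108 and 99.5 in Pi16 and 80.5 and 61.2 in Casr cells. Acaca, acetyl-CoA carboxylase, was highest in marrow stromal-like cells at 138 and 84 CPM, with 67.6 and 51.3 in Pi16 and 38 and 28.5 in Casr cells.

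**Figure D3:**
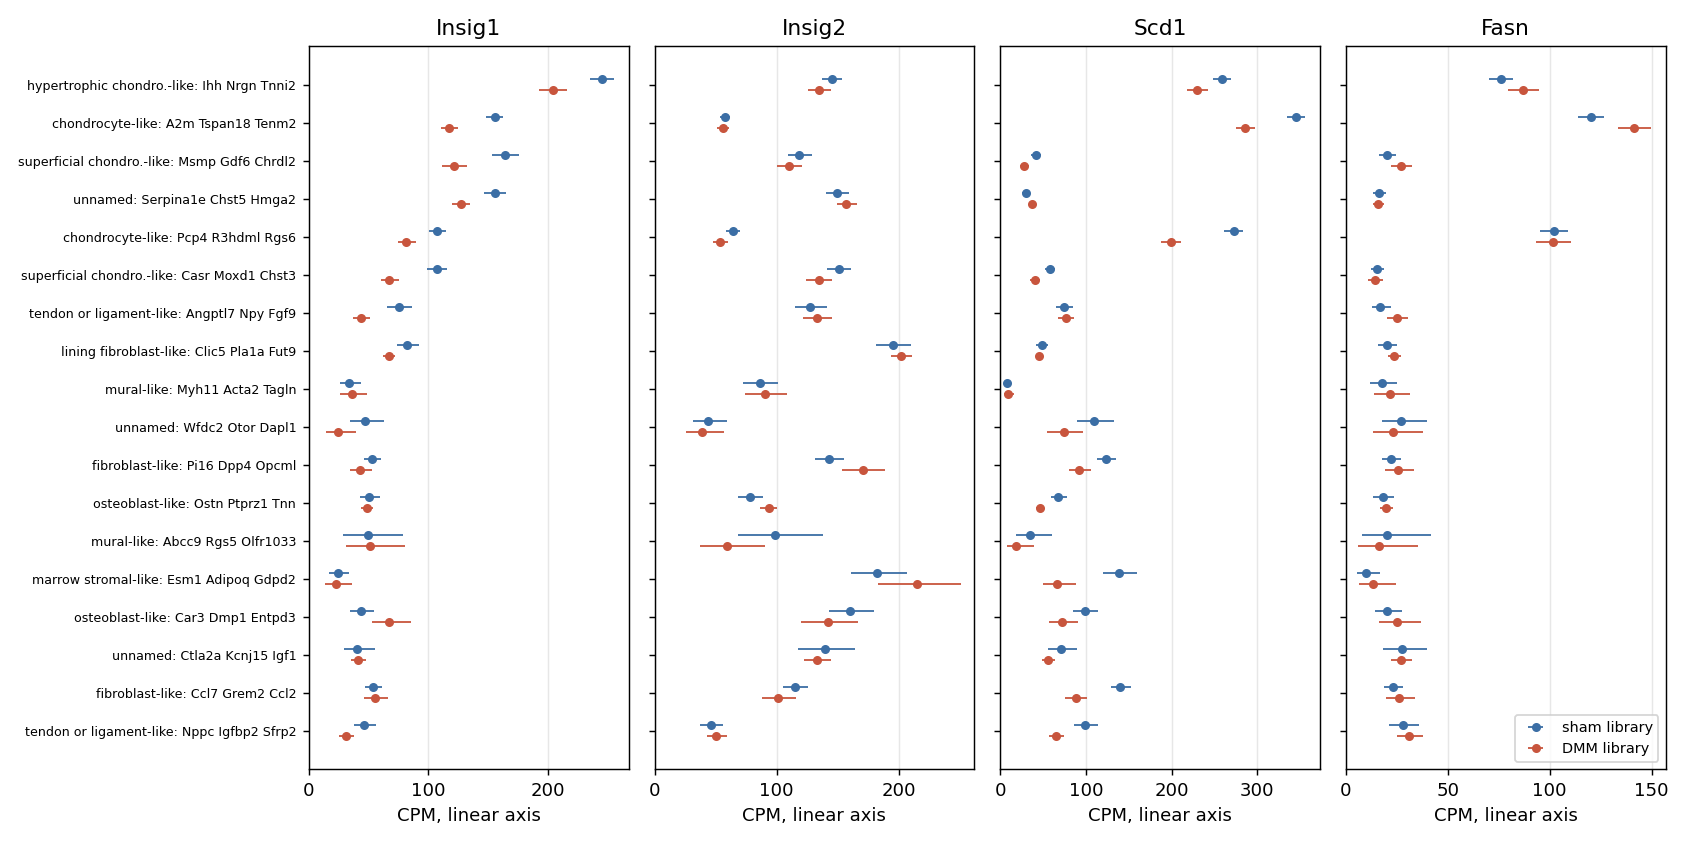
CPM of Insig1, Insig2, Scd1 and Fasn in the 18 connective tissue populations, sham and DMM, with exact Poisson 95% intervals. Insig1 is highest in hypertrophic cells (245 and 205 CPM) and Insig2 in lining and marrow stromal-like cells, while Scd1 and Fasn are highest in A2m cells.

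Setting whole classes against each other gives the folds and how common such folds were. Genes counted had at least 50 UMIs over the 2 classes in each library, and a gene was called when the difference was at least 1.5-fold in the same direction in both libraries. The superficial class joins the Casr and Msmp populations and the chondrocyte class joins A2m, Pcp4 and a small Cep55-led cluster. Between chondrocyte and fibroblast-like cells, 22 of 29 members were higher in chondrocytes (18 of 23 sterol, 4 of 6 fatty acid), where 23.5% of all genes were. Msmo1 was 19.3-fold higher in sham and 17.3-fold in DMM, Fdft1 11.8-fold and 12-fold, Cyp51 10.1-fold and 9.42-fold and Stard4 9.37-fold and 9.32-fold. Insig2 was the 1 member called lower, at 0.457 and 0.401 of the fibroblast-like level, where 29.9% of all genes were lower. Taking for each gene the smaller of its 2 ratios, or 0 where the libraries differed in direction, the median log2 ratio was 1.33 for sterol and 1.28 for fatty acid members and -0.02 for all genes.

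Superficial against fibroblast-like cells, 15 of 28 members were higher, all in the sterol branch (16.5% of all genes), and Acaca and Scd1 were lower (26.1%). Msmo1 was 14.9-fold higher in sham and 13.8-fold in DMM, Stard4 10.9-fold and 9.01-fold, and Scd1 was at 0.386 and 0.378 of the fibroblast-like level. The summed sterol branch was 2.82-fold and 2.36-fold the fibroblast-like level, and the summed fatty acid branch 0.753 and 0.716 of it. Chondrocyte against superficial cells, 9 of 29 members were higher, namely Pmvk, Fdft1, Hsd17b7, Dhcr7, Acaca, Fasn, Scd1, Scd2 and Elovl6, so 5 of 6 fatty acid but 4 of 23 sterol members (22.3% of all genes). Elovl6 was 6.76-fold higher in sham and 9.15-fold in DMM, Fasn 6.36-fold and 6.11-fold and Scd1 5.96-fold and 7.26-fold. Insig2 was lower, at 0.43 and 0.444 of the superficial level (18.9%). The summed branches differed 3-fold and 3.38-fold for fatty acids and 1.24-fold and 1.29-fold for sterols. The chondrocyte class also had more UMIs per cell, a median of 14447.5 in sham A2m cells against 6748 in Casr cells, and with cells thinned to 2000 UMIs the sham log2 ratio of the fatty acid sums was 1.77 (1.58 unthinned).

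Hypertrophic against chondrocyte cells, 9 of 29 members were higher, all in the sterol branch (4.68% of all genes): Hmgcs1, Mvk, Idi1, Fdps, Sqle, Msmo1, Dhcr7, Insig1 and Insig2. Srebf1 was lower, at 0.589 and 0.49 (12.2%). Insig2 was 2.47-fold higher in both libraries and Hmgcs1 1.72-fold and 1.65-fold, while the fatty acid sum was at 0.882 and 0.891. Lining against fibroblast-like cells, 6 of 26 members were higher (Mvk, Pmvk, Fdps, Sqle, Msmo1 and Hsd17b7, 12.7% of all genes) and Stard4 and Scd1 were lower (13.4%). Msmo1 was 2.56-fold and 2.78-fold higher there, and Stard4 at 0.62 and 0.64. In sham lining cells 1 cell held 13% of the 108 Msmo1 UMIs, and 1 cell held 10.4% of the 77 Sqle UMIs.

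The second question of the design is whether these levels differed after DMM. Most members were lower in the DMM than in the sham library in cartilage cells, by less than 1.5-fold for most, and over all genes the median was below 0 as well. The summed sterol branch of superficial cells was 1529 CPM in sham and 1204 in DMM, a log2 ratio of -0.34 (-0.38 to -0.31), and their summed fatty acid branch 319.6 and 240.1, a log2 ratio of -0.41 (-0.49 to -0.33). In chondrocytes the sterol sum was 1902 and 1555 (-0.29, -0.31 to -0.27) and the fatty acid sum 958 and 811 (-0.24, -0.27 to -0.21). The median log2 ratio of all counted genes was -0.20 in superficial cells, beside -0.31 for 23 sterol and -0.46 for 6 fatty acid members. In chondrocytes it was -0.16 beside -0.27 and -0.33. Scaling by median of ratios, which sets that shift aside, gave -0.15 and -0.21 for the superficial and -0.13 and -0.080 for the chondrocyte sums.

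In superficial cells 4 of 29 members were at least 1.5-fold lower in DMM, where 16.3% of all genes were, a share near the background. They were Idi1 (108 CPM in sham and 67.2 in DMM, log2 -0.68, -0.82 to -0.54), Cyp51 (152 and 96.1, -0.66, -0.78 to -0.54), Lss (11.7 and 7.41) and Nsdhl (11.5 and 6.85). With median-of-ratios scaling 0 members were as much lower, in superficial cells and in chondrocytes alike. Mvk was the 1 member called higher, at 5.38 and 8.08 CPM on 58 and 72 UMIs (log2 0.59, 0.07 to 1.11), where 3.26% of all genes were. No member was called higher in 11 of 16 alternative settings, and the ratio was -0.25 with cells thinned to 2000 UMIs. Lss turned to 0.13 when thinned. Below the 1.5-fold line, Hmgcs1 was 223 and 158 CPM (-0.49, -0.59 to -0.40), Insig1 132 and 93.8 (-0.49), Stard4 86.8 and 58 (-0.58) and Sqle 59.4 and 39.7 (-0.58). Scd1 was 51 and 34.1 (-0.58), Elovl6 21.7 and 14.7 (-0.56), Acaca 38.9 and 28.2 (-0.46) and Scd2 109 and 79.8 (-0.45). Fasn stood apart from the rest of its branch, at 17.5 and 20.4 CPM (0.22, -0.08 to 0.52), as did Srebf1 at 50.3 and 52 (0.05, -0.13 to 0.23). Within the class Fasn was higher in DMM in Msmp cells, while all 6 fatty acid members, Fasn included, were lower in Casr cells. Pmvk, at 34.4 and 44.9 (0.38), and Ebp, at 38.3 and 44.8 (0.23), were higher in DMM.

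In the Casr population 9 of 27 members were at least 1.5-fold lower (16.1% of all genes): Hmgcs1, Idi1, Sqle, Lss, Cyp51, Nsdhl, Hsd17b7, Insig1 and Stard4, all of the sterol branch. Its sterol sum had a log2 ratio of -0.47 (-0.53 to -0.42), beside -0.30 (-0.35 to -0.26) in Msmp cells, and its fatty acid sum -0.37 (-0.49 to -0.26), beside -0.48 (-0.59 to -0.37). In Msmp cells 5 of 28 members were lower (17.1%), namely Acat2, Lss, Scd1, Scd2 and Elovl6, and Mvk was higher (4.91%). The difference between the 2 populations was not tested.

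In chondrocytes 1 of 29 members, Cyp51 at 224 and 139 CPM (log2 -0.69, -0.76 to -0.62), was at least 1.5-fold lower (9.71% of all genes) and none was as much higher (1.61%). Idi1 was 134 and 89.7 (-0.58, -0.67 to -0.48), Hmgcs1 312 and 233 (-0.42), Acaca 67.1 and 48.8 (-0.46), Scd2 239 and 184 (-0.37) and Scd1 304 and 248 (-0.30). Fasn was again higher in DMM, at 112 and 125 CPM (0.16, 0.08 to 0.25), with Ebp at 40 and 53.1 (0.41), Pmvk at 72.5 and 83.7 (0.21) and Fdps at 67.8 and 76.4 (0.17). Within the class Fasn was 120.1 and 141 CPM in A2m cells but 102 and 102 in Pcp4 cells. In hypertrophic cells 2 of 30 members, Idi1 and Lss, were lower (14.5%) and none higher (2.27%). Lining cells differed: their sterol sum was 710.4 and 721 CPM (0.02, -0.04 to 0.08), none of 29 members was lower (13.1%) and Fdps, Dhcr7 and Scap were higher (6.56%).

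Across the 24 populations the sterol sum was lower in DMM in 17, with an interval below 0 in 12 and above 0 in 2 (the Myh11 mural-like and the Slfn14 erythroid-like cells). The fatty acid sum was lower in 23, with an interval below 0 in 17. Its largest difference outside blood cells was in marrow stromal-like cells, at 423 and 245 CPM (-0.79, -1.03 to -0.54), where 1 cell held 13.4% of the Scd1 UMIs in sham and 14% in DMM. By gene, Acly was lower with an interval excluding no difference in 15 of the 21 populations in which it could be counted, Acaca in 14 of 20, Hmgcs1 in 12 of 20, Idi1 in 12 of 17, Elovl6 in 12 of 15, Scd1 in 12 of 19, Insig1 in 11 of 19 and Cyp51 in 10 of 19. Ebp was higher in that sense in 9 of 19, Fdps in 7 of 18, Pmvk in 4 of 19 and Fasn in 4 of 16. The median log2 ratio of all counted genes was itself below 0 in all 24 populations. It ran from -0.22 in Myb erythroid-like cells to -0.05 in marrow stromal-like cells. How many of all genes had such intervals was not counted, and populations of the same 2 libraries are not replicates.

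**Figure D4:**
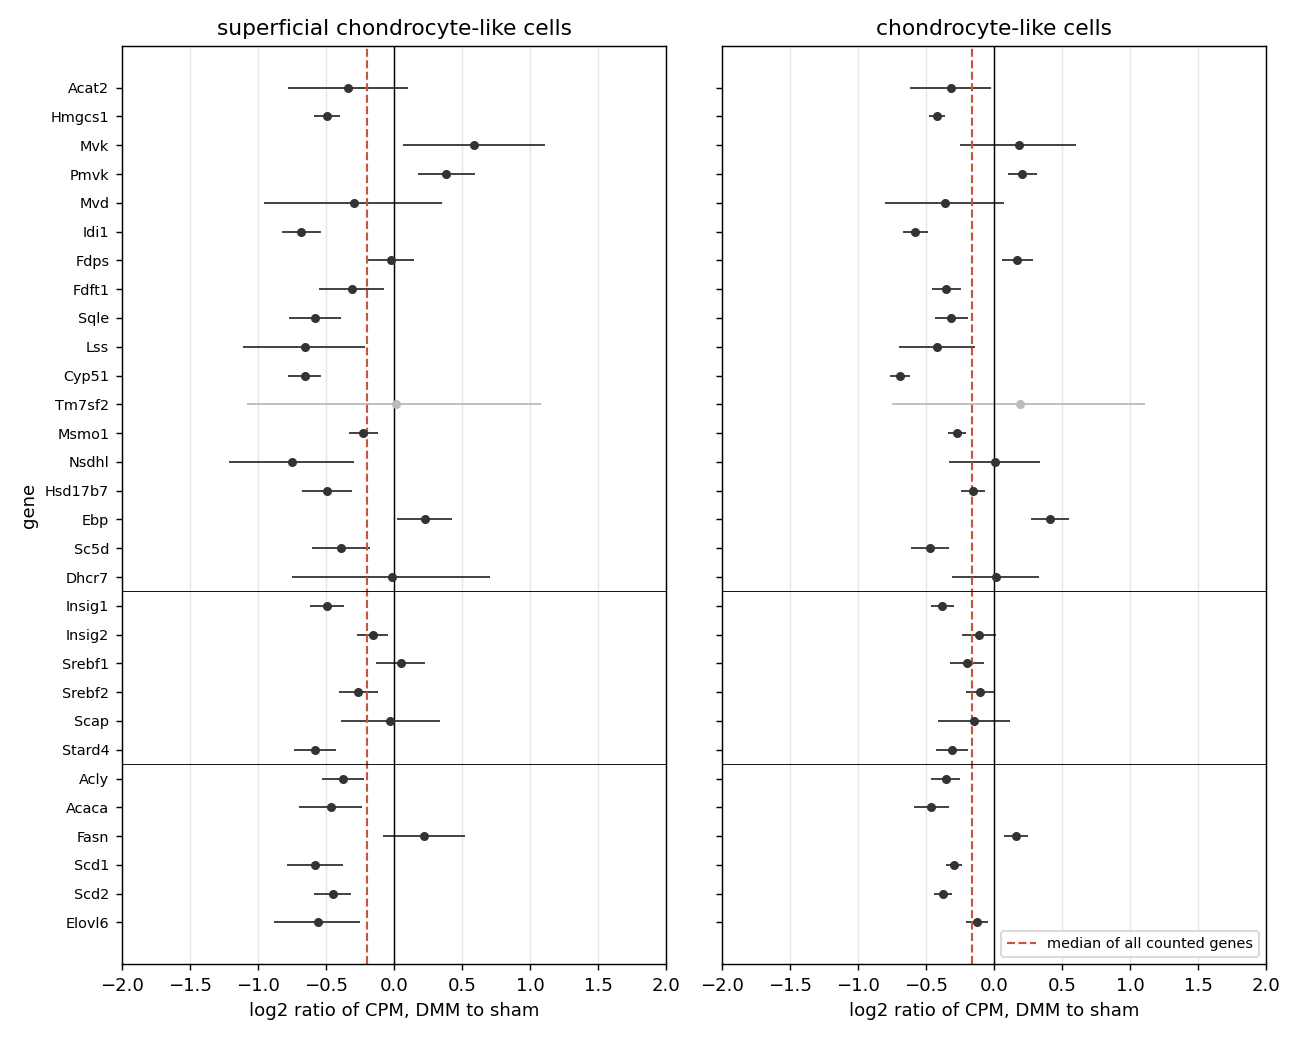
Log2 ratio of DMM to sham for each of the 30 genes in superficial and chondrocyte cells, with exact 95% counting intervals, and a dashed line at the median of all counted genes (-0.20 and -0.16). Nsdhl, Idi1 and Cyp51 lie lowest in superficial cells and Cyp51 and Idi1 in chondrocytes, Ebp, Pmvk and Fasn lie above 0 in both, and Tm7sf2 is grey because it had under 50 UMIs.

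Other measures differed between the libraries along with these genes. The 4 haemoglobin genes, defining markers of red cells, were all lower in DMM in superficial cells (summed 3294 and 1222 CPM, median log2 -1.47) and in chondrocytes (779 and 659, -0.35). Within the chondrocyte class the haemoglobin sum was higher in DMM in A2m cells (284 and 665 CPM) and lower in Pcp4 cells (1581 and 281), and the sterol sum was lower in both, with log2 ratios of -0.35 and -0.22. Of 8 cell cycle genes, 3 were at least 1.5-fold lower in DMM in chondrocytes, namely Mki67 (log2 -0.86), Top2a (-0.81) and Cenpf (-0.88), and Tyms was as much higher (0.59), while in superficial cells 1 of 6 counted, Cenpf, was lower (-0.77). Their sum was 232 and 162 CPM in the chondrocyte class, but 33.3 and 31.4 in A2m cells and 36.2 and 39.8 in Pcp4 cells. Genes with longer spans had lower DMM to sham ratios, with Spearman's rho over all genes of -0.50 in superficial cells and -0.47 in chondrocytes. Over the 29 members alone rho was -0.04 and 0.08. The 17 members under 20 kb had a median log2 ratio of -0.39 in superficial cells, where all genes that short had 0.07, and of -0.31 in chondrocytes, where all had 0.03. With the span trend removed the number of members at least 1.5-fold lower was 11 in superficial cells and 4 in chondrocytes. The part of depth, span, cell cycle and haemoglobin RNA in the differences was not tested.

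Neighbouring parts of lipid metabolism were followed with 4 further lists. Of the isoprenoid side branches and SREBP proteases, 1 of 9 counted genes was at least 1.5-fold lower in DMM in each class (all genes 16.3% in superficial cells and 9.71% in chondrocytes) and 0 were higher (3.26% and 1.61%). Pdss1, for the ubiquinone side chain, was lowest at log2 -0.84 in superficial cells and -0.61 in chondrocytes, and the highest were Coq2 (0.22) and Fnta (0.10). Of the efflux, storage and hydroxylation genes, 1 of 14 was higher (3.26% of all genes) and 3 lower (16.3%) in superficial cells, and 4 of 13 were lower in chondrocytes (9.71%). The lipoprotein receptor gene Vldlr was 8.25 and 13.1 CPM in superficial cells (0.67, 0.26 to 1.08) and 19.7 and 12 in chondrocytes (-0.72, -0.97 to -0.46), opposite directions whose difference was not tested. The lysosomal lipase Lipa was lowest in superficial cells (-0.91), and in chondrocytes the oxysterol hydroxylase Cyp7b1 was lowest, at 26.2 and 15 CPM (-0.80), and Nr1h3 highest (0.36). The exporter Abca1 had 37.6 and 22.1 CPM in superficial cells (-0.77) and 11.2 and 7.08 in chondrocytes (-0.66). Ch25h had 0 UMIs in sham and 1 in DMM in each class.

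Of the further fatty acid synthesis genes, 2 of 15 were lower in superficial cells (16.3% of all genes) and 3 of 16 in chondrocytes (9.71%), with none higher. The glucose-responsive partner factor Mlxip was lowest in superficial cells (40.4 and 23.7 CPM, -0.77) and the acyl-CoA synthetase Acsl3 in chondrocytes (72.5 and 46, -0.66). The citrate carrier Slc25a1 (0.47) and the mitochondrial carboxylase Acacb (0.50) were the highest of that list, with intervals that include 0. Of uptake, droplet and oxidation genes, 3 of 12 were higher (3.26% of all genes) and 1 lower (16.3%) in superficial cells, and 1 of 12 was lower in chondrocytes (9.71%). Pdk4, a kinase that turns off pyruvate oxidation, was 13.7 and 4.71 CPM in superficial cells (-1.54, -2.07 to -1.04) and 12.8 and 4.14 in chondrocytes (-1.62, -2.04 to -1.22). Fabp5, a fatty acid binding protein, was 13.5 and 29.7 CPM in superficial cells (1.14, 0.84 to 1.44) but 48 and 49.9 in chondrocytes (0.06, -0.08 to 0.19). The droplet coat gene Plin2 was 2.23 and 3.59 (0.69, -0.12 to 1.52) and 3.34 and 4.74 CPM (0.51, 0.02 to 1.00).

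Among 7169 genes compared over the 24 populations, those among the most like the summed sterol branch were Cox14 (r = 0.93 in sham and 0.90 in DMM), Msi2 (0.86, 0.86), H1f0 (0.85, 0.90) and Arhgef1 (0.85, 0.83). Those among the most like the fatty acid branch were Gnai3 (0.92, 0.92), Colgalt1 (0.96, 0.91), Rab28 (0.91, 0.90) and Airn (0.92, 0.90). These are descriptions over populations that share 2 libraries.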

How the data were processed

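Single-cell libraries made with a 10x kit that counts transcript ends, per the labels' protocols, of sorted knee cartilage cells were read as the authors' deposited UMI counts per gene and barcode, with no further normalization. The matrix header names Cell Ranger 7.1.0 and the submitters' processing notes name 3.0.1, with build mm10, and also Seurat, STAR, HTSeq and DESeq2; which version made the counts is not settled here. A deposited bulk table was not used, since its 6 columns of values match no sample label.

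From the counts, barcodes were kept where 500 or more genes were detected and mitochondrial UMIs made up 10% or less, Scrublet doublets were removed in each library (463 sham, 360 DMM), and the cells were clustered with scanpy 1.11.5 (2000 variable genes without the 30 members and 57 other lipid genes, 30 components, 15 neighbours, Leiden resolution 1, seed 1, no integration). Clusters were named "X-like" from the best of 21 marker lists, with a mean log2 fold over the list of at least 0.75 and at least 3 raised markers. A cluster stayed unnamed where another list held more of its 10 leading genes. Clusters of low depth also needed a gene of their own list among the leading genes. Counts were summed per population and library into CPM, with exact Poisson intervals for levels and exact conditional binomial 95% intervals for ratios, covering counting error only. Genes with at least 50 UMIs were counted, 1.5-fold was the call, and classes were compared in each library. The interval procedure was tested on simulated counts of 11040 genes for superficial cells, DMM to sham. It covered the true ratio in 95.8% of 10840 unchanged genes. The remaining genes were given an increase, and 96% of those raised 2-fold and 87% of those raised 1.5-fold were found. Decreases were not simulated, and the simulated counts held counting error only.

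All 30 members are reported. In each further list the genes with the highest and lowest ratio in each class were named, with Ch25h, Cyp7b1, Abca1, Fabp5 and Plin2, and for each branch the 5 genes most like its sum over populations by log2(CPM + 1), the smaller r of the 2 libraries ranking them, among genes reaching 50 CPM. Of these, 1 gene for each branch is not reported here. Gene spans come from GENCODE vM21, which held 99.6% of features, and promoters from RefSeq. The members, lists, naming score and clustering settings were chosen with earlier results of these data known. The 20 kb split, the gene pairs correlated, the genes thinned for shares, the promoters printed, the 5 single-cluster alternatives and the contrasts of superficial or lining with fibroblast-like and of hypertrophic with chondrocyte cells were chosen after values were seen. Alternatives, 13 planned and 5 added, covered cell filters, doublets, resolution, centring, scaling, depth, UMI minimum and span.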

Additional observations from a re-analysis of the deposited data

How the results depend on the processing

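The log2 DMM to sham ratios of both sums stayed below 0 in both classes under every alternative run, at -0.47 to -0.15 for superficial sterol and -0.48 to -0.21 for superficial fatty acid (16 alternatives, 1 of them the unnamed Serpina1e-led cluster in place of the class), and -0.37 to -0.13 and -0.30 to -0.080 for the same sums in chondrocytes (15). The single-cluster settings were added after seeing the data. The counts of members past 1.5-fold were less firm: median-of-ratios scaling left 0 lower in either class, and removing the span trend gave 11 and 4. The reported sums are -0.34, -0.41, -0.29 and -0.24, with 1 higher and 4 lower members in superficial and 0 and 1 in chondrocyte cells. Values that moved are listed by setting, where C/S and C/F are log2 ratios of the chondrocyte class to the superficial and to the fibroblast-like class and FA is fatty acid. The cause of these shifts was not tested. With at least 1000 genes per cell, the log2 sums were superficial sterol -0.30, and the members called were higher superficial 0, lower chondrocyte 2, and the log2 contrasts were C/S sterol DMM 0.30. With at most 5% mitochondrial UMIs, the log2 sums were superficial sterol -0.28, and the members called were higher superficial 0, lower superficial 2, and the log2 contrasts were C/S FA sham 1.68, C/S sterol DMM 0.28. With doublets kept, the members called were higher superficial 0, lower chondrocyte 2, and the log2 contrasts were C/F sterol sham 1.77, C/S FA sham 1.48, C/S sterol sham 0.25, C/S FA DMM 1.68, C/S sterol DMM 0.28. At Leiden resolution 0.5, the log2 sums were superficial sterol -0.39, and the members called were higher superficial 0, lower superficial 8, and the log2 contrasts were C/S sterol DMM 0.42. At Leiden resolution 2.0, the log2 sums were superficial sterol -0.39, and the members called were higher superficial 0, and the log2 contrasts were C/S sterol sham 0.16, C/S sterol DMM 0.25. With variable genes centred by library, the log2 sums were superficial sterol -0.27, and the members called were higher superficial 0, lower superficial 2, lower chondrocyte 2, and the log2 contrasts were C/S sterol sham 0.26, C/S sterol DMM 0.23. With lipid genes among the variable genes, the members called were higher superficial 0, and the log2 contrasts were C/F sterol sham 1.76, C/S sterol sham 0.29. With median-of-ratios scaling, the log2 sums were superficial sterol -0.15, superficial fatty acid -0.21, chondrocyte sterol -0.13, chondrocyte fatty acid -0.080, and the members called were lower superficial 0, lower chondrocyte 0, and the log2 contrasts were C/F sterol sham 1.90, C/S sterol sham 0.35, C/F sterol DMM 1.85. Without the 50 most abundant genes, the log2 sums were superficial sterol -0.27, chondrocyte sterol -0.25, chondrocyte fatty acid -0.20, and the members called were lower superficial 2, and the log2 contrasts were C/F sterol sham 2.02, C/S sterol sham 0.27, C/F sterol DMM 1.82, C/S FA DMM 1.69, C/S sterol DMM 0.30. With cells thinned to 2000 UMIs, the log2 sums were superficial sterol -0.30, superficial fatty acid -0.26, chondrocyte sterol -0.26, chondrocyte fatty acid -0.29, and the members called were higher superficial 0, and the log2 contrasts were C/F sterol sham 1.71, C/S FA sham 1.77, C/S sterol sham 0.45, C/S sterol DMM 0.48. With at least 200 UMIs per gene, the members called were higher superficial 0, lower superficial 2. Mvk, Lss and Nsdhl fall under that minimum in superficial cells and could not be called. With the trend on gene span removed, the log2 sums were superficial sterol -0.45, chondrocyte sterol -0.37, and the members called were higher superficial 0, lower superficial 11, lower chondrocyte 4. In the unnamed Serpina1e-led cluster, taken in place of the superficial class, the log2 sums were sterol -0.24, fatty acid -0.24. In the A2m-led cluster alone, the log2 sums were chondrocyte sterol -0.35, and the members called were lower chondrocyte 2. In the Casr-led cluster alone, the log2 sums were superficial sterol -0.47, and the members called were higher superficial 0, lower superficial 9. In the Pcp4-led cluster alone, the log2 sums were chondrocyte sterol -0.22, chondrocyte fatty acid -0.30. In the Msmp-led cluster alone, the log2 sums were superficial sterol -0.30. For single genes in superficial cells, Mvk was -0.25 when thinned and -0.042 in the Serpina1e-led cluster, and Lss was 0.13 when thinned. The thinned ratios of Mvk and Lss rest on few UMIs and have no interval here. Which cells make up the superficial class changed between clusterings. Members with few UMIs (Tm7sf2, Mvd, Mvk, Dhcr7) are limited by depth. No paired analysis was possible because each group is 1 library. Leaving out a replicate was likewise not possible.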
